A study of Homo sapiens with 14 samples.

Results

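LRGUK, OSCP1, CCDC113, BBOF1, EFCAB6, LRRC46, NEK10, PIH1D2, MAPK15 and CLBA1 are the 10 genes described here, of 63140 genes in the count table. They were selected on their measured values as the largest rises against control after transfection with either form of miR-34a, and most of them are known from cilia. Their levels against control are therefore given as a description with no test. The cells were HEK293T, a line derived from human embryonic kidney that carries the SV40 large T antigen, and RNA was collected 24 h after transfection. The miR-34a-WT group (n = 5) received the unmodified miR-34a duplex. The miR-34a-RS group (n = 4, replicates 1, 2, 3 and 5) received the same duplex with abasic rSpacer residues, which lack a base, at guide positions 13 and 14. The control group (n = 5) received the AllStars negative control siRNA from Qiagen, so every group was transfected with a small RNA duplex and no untransfected cells were analysed here. The study compared the 2 forms to ask how supplementary pairing, base pairing of a microRNA beyond its seed, bears on gene expression.

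MicroRNAs guide Argonaute proteins to messenger RNAs, mostly through the seed at guide positions 2 to 8, and lower the targets they pair with. Members of the miR-34 and miR-449 family share a seed, are abundant in multiciliated epithelial cells and promote the formation of multiple motile cilia, with the centriolar cap protein CP110 among their reported targets. A motile cilium is built on a basal body. It carries a microtubule axoneme driven by dynein arms that are assembled in the cytoplasm, while intraflagellar transport brings in its parts. HEK293T cells can form a primary cilium, which is single and does not beat.

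The guide sequence is shown because the 2 duplexes share its seed and differ at positions 13 and 14, beside miR-449a for the shared seed. Both are the mature RNAs in RefSeq on GRCh38.p14, at chr1:9151735-9151756 on the minus strand for miR-34a-5p and chr5:55170586-55170607 on the minus strand for miR-449a. Capitals mark the seed, and positions count from 1 at the 5′ end.
hsa-miR-34a-5p: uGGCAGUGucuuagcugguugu
hsa-miR-449a: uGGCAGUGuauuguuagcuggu
The 2 RNAs have the same base at 15 of 22 positions.

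Library totals ranged from 22.24 to 36.26 M counts, and the lowest count of any of the 10 genes in any library was 34, for EFCAB6 in control library 5. Levels are given in CPM, counts scaled to the size of their library, here with TMM factors. Nothing in the labels says whether replicates were grown or transfected separately. Every p-value below therefore reflects how far these libraries differ from each other, and that spread may be of technical origin. All 7 HEK293T markers were detected, with summed levels of 465 to 517 CPM in miR-34a-WT libraries, 472 to 502 in miR-34a-RS libraries and 501 to 534 in control libraries. Of these 7, NEFL and NEFM, neurofilament genes, fell with both duplexes (log2 -0.57 and -0.47 under miR-34a-WT, and log2 -0.52 and -0.40 under miR-34a-RS). PAX2 fell and CDH2 rose with miR-34a-WT (log2 -0.39 and 0.11), and KRT8 rose with miR-34a-RS (0.43). Fibroblast markers summed to 47.0 to 53.2, 49.6 to 55.6 and 52.5 to 65.1 CPM in miR-34a-WT, miR-34a-RS and control libraries, with COL1A2 and FAP at 0. Of 8 fibroblast markers tested, 4 fell with each duplex, and the part of both lists in the results below was not tested. Blood cell markers summed to 4.87 to 6.10, 5.90 to 6.59 and 4.89 to 5.42 CPM in the same order, with MS4A1 and HBA2 at 0. In bulk RNA, more cells with a transcript and more transcript per cell cannot be told apart.

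All 10 genes passed the filter on low counts, and all 10 were higher in every miR-34a-WT library than in every control library. The same held for every miR-34a-RS library. Among the 18321 tested genes, 13.8% had every miR-34a-WT library above every control library and 12.6% had every miR-34a-RS library above them. With miR-34a-WT, 18.9% of tested genes were called higher and 21.3% lower than control at an adjusted p under 0.05, and with miR-34a-RS 16.2% were called higher and 18.4% lower. The selection used these contrasts, so nothing is read from the 10 being among the genes called. Their folds over control ranged between 2.57 for CLBA1 and 5.31 for LRGUK with miR-34a-WT, and between 2.44 for NEK10 and 4.0 for LRGUK with miR-34a-RS. The median log2 fold change of the 10 was 1.85 after miR-34a-WT and 1.69 after miR-34a-RS, beside -0.02 and -0.01 over all tested genes.

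**Figure D1:**
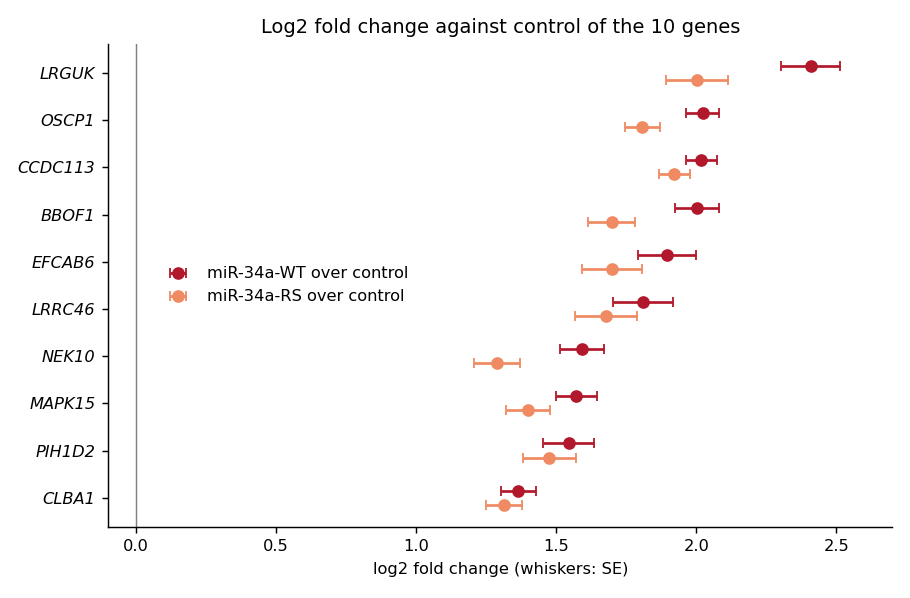
Log2 fold change over control of each gene (horizontal axis), with miR-34a-WT in dark red, miR-34a-RS in orange and whiskers of 1 SE from the edgeR fit of 14 libraries. Every miR-34a-RS point lies left of the miR-34a-WT point of its gene, and LRGUK, at 2.41 and 2.0, lies farthest right for both.

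The ranking by fold took genes that averaged 5 CPM or more over the libraries compared and whose groups did not overlap. They also had an edgeR adjusted p under 0.05, and genes with clone, locus or open reading frame names were left out. LRGUK, OSCP1, CCDC113, BBOF1, EFCAB6 and LRRC46 held ranks 1 to 6 with miR-34a-WT. DNAI3, an intermediate chain of the inner dynein arm, held rank 7 with a log2 fold change of 1.75 and is not among the 10. NEK10 at rank 8 had 1.59. Just outside that limit lay MAPK15 at 1.57, PIH1D2 at 1.54, RAB36 at 1.51 and NRAV at 1.44, and CLBA1 held rank 14 with 1.36. With miR-34a-RS, CCDC113, OSCP1, BBOF1 and LRRC46 held ranks 1 to 4, DNAI3 rank 5 with 1.58, and PIH1D2, MAPK15 and CLBA1 ranks 6 to 8, the last with 1.31. NEK10 followed at 1.29, then ZNF678 at 1.26, SMIM15 at 1.24 and CFAP70 at 1.22. LRGUK and EFCAB6 averaged 4.05 and 4.51 CPM over the miR-34a-RS and control libraries, under the 5 CPM limit, and so had no rank there.

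Genes of lower level had larger folds. Below 5 CPM and under the other conditions of the ranking, 38 genes after miR-34a-WT and 50 after miR-34a-RS had a larger fold than the gene at rank 8. TTC29, a protein of motile cilia and sperm flagella, had 0.648 ± 0.149, 0.490 ± 0.122 and 0.0567 ± 0.0422 CPM in miR-34a-WT, miR-34a-RS and control libraries (mean ± SD, n = 5, 4 and 5), with log2 fold changes of 3.35 and 2.95. FOXJ1, the transcription factor that switches on motile cilium genes, had 0.935 ± 0.178, 0.640 ± 0.229 and 0.0939 ± 0.0711 CPM, with log2 fold changes of 3.19 and 2.65. Both rose more than any of the 10, at levels under 2 CPM in every library.

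**Figure D2:**
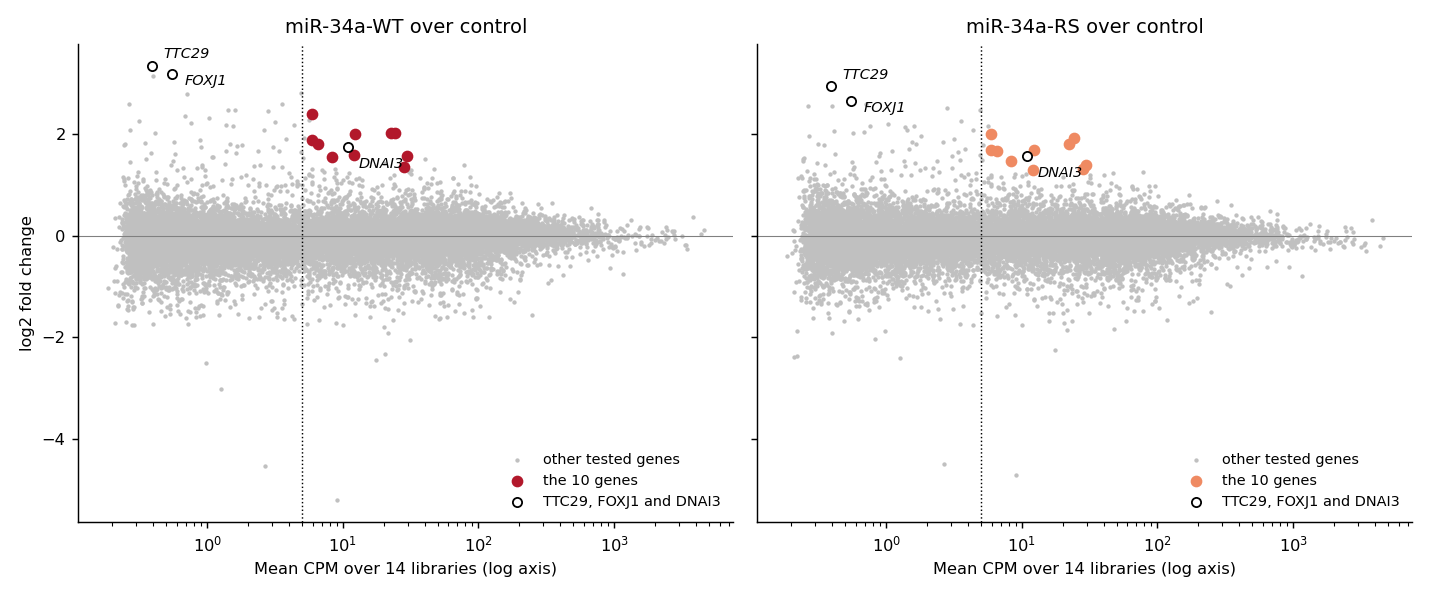
Log2 fold change over control (vertical axis) against mean CPM over the 14 libraries (horizontal, log axis) for all 18321 tested genes, with the 10 genes in colour and TTC29, FOXJ1 and DNAI3 ringed. The dotted line marks 5 CPM. The ranks used the mean over the libraries of each comparison, so a few genes just right of the line were not ranked.

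Among the kinases, NEK10 is a NIMA-related kinase that promotes ciliary motility in human airway cells (ENSG00000163491, GRCh38 chr3:27110085-27369460, minus strand). It had 18, 17.7, 16.8, 16.3 and 16.5 CPM in miR-34a-WT libraries 1 to 5, and 14.1, 14.5, 12.2 and 14.6 CPM in miR-34a-RS libraries 1, 2, 3 and 5. In control libraries 1 to 5 it had 6.74, 5.45, 5.89, 5.51 and 4.58 CPM. The 3 groups did not overlap, with miR-34a-RS between miR-34a-WT and control and its replicate 3 the lowest of its group. NEK10 was 3.01-fold above control with miR-34a-WT (log2 1.59, SE 0.08) and 2.44-fold above it with miR-34a-RS (log2 1.29, SE 0.08).

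MAPK15, also called ERK8, is an atypical MAP kinase needed for cilium formation in Xenopus (ENSG00000181085, GRCh38 chr8:143716259-143722458, plus strand). Its levels were 37.4, 43.5, 42.2, 39.1 and 40.7 CPM in miR-34a-WT libraries and 31.6, 37.2, 38.6 and 36.8 CPM in miR-34a-RS libraries. Control libraries had 12.5, 13.6, 11.6, 14.9 and 16.1 CPM. Both duplexes lay clear of control, while miR-34a-RS replicate 3 reached above miR-34a-WT replicate 1. The folds over control were 2.97 after miR-34a-WT (log2 1.57, SE 0.07) and 2.64 after miR-34a-RS (log2 1.40, SE 0.08).

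LRGUK holds leucine-rich repeats and a guanylate kinase-like domain and is needed in mouse for shaping the sperm head and building the tail (ENSG00000155530, GRCh38 chr7:134127299-134264591, plus strand). It had 7.74, 8.98, 9.50, 9.36 and 10.4 CPM in miR-34a-WT libraries, and 7.28, 6.80, 6.42 and 7.29 CPM in miR-34a-RS libraries. In control libraries it had 1.95, 1.99, 1.63, 1.34 and 1.75 CPM. The groups were ordered without overlap. LRGUK was 5.31-fold above control with miR-34a-WT (log2 2.41, SE 0.10), the highest fold of the 10, and 4.0-fold above it with miR-34a-RS (log2 2.0, SE 0.11).

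Of the genes of the axoneme and basal body, CCDC113 encodes a coiled-coil protein of centriolar satellites and the axoneme that pairs with CCDC96 in Tetrahymena (ENSG00000103021, GRCh38 chr16:58231157-58283836, plus strand). It had 34.6, 35.4, 32.6, 33.9 and 33.4 CPM in miR-34a-WT libraries, and 31.5, 32.9, 29.7 and 33.2 CPM in miR-34a-RS libraries. Control libraries had 8.13, 8.79, 8.26, 8.80 and 7.86 CPM. Control lay far below both duplexes, which overlapped each other. The folds over control were 4.05 (log2 2.02, SE 0.05) with miR-34a-WT and 3.79 (log2 1.92, SE 0.06) with miR-34a-RS. CCDC96 had 4.43 ± 0.57, 4.4 ± 0.92 and 1.44 ± 0.41 CPM in miR-34a-WT, miR-34a-RS and control libraries (mean ± SD, n = 5, 4 and 5), with log2 fold changes over control of 1.66 and 1.65. It is named after its values were seen.

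BBOF1 maintains the orientation of basal bodies in Xenopus multiciliated cells (ENSG00000119636, GRCh38 chr14:74019353-74082863, plus strand). Its levels were 19.5, 17.3, 18.4, 16.8 and 18.4 CPM in miR-34a-WT libraries and 15.4, 14.4, 12.9 and 15.8 CPM in miR-34a-RS libraries. Control libraries had 5.27, 4.35, 4.56, 4.4 and 3.86 CPM. No library of one group reached into another. BBOF1 was 4.01-fold above control with miR-34a-WT (log2 2.0, SE 0.08) and 3.24-fold above it with miR-34a-RS (log2 1.70, SE 0.08).

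EFCAB6 encodes an EF-hand protein known to bind DJ-1 and the androgen receptor (ENSG00000186976, GRCh38 chr22:43528744-43812337, minus strand). It had 8.48, 7.86, 8.53, 7.68 and 9.59 CPM in miR-34a-WT libraries, and 7.71, 7.46, 6.77 and 7.52 CPM in miR-34a-RS libraries. Control libraries had 2.30, 2.59, 2.49, 2.22 and 1.53 CPM. The duplexes overlapped only where miR-34a-RS replicate 1 passed miR-34a-WT replicate 4. The folds over control were 3.72 (log2 1.89, SE 0.10) with miR-34a-WT and 3.25 (log2 1.70, SE 0.11) with miR-34a-RS.

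LRRC46 is a leucine-rich repeat protein needed for the sperm flagellum in mouse (ENSG00000141294, GRCh38 chr17:47831627-47837713, plus strand). Its levels were 8.05, 9.88, 8.97, 9.11 and 9.91 CPM in miR-34a-WT libraries and 8.40, 7.98, 9.19 and 7.99 CPM in miR-34a-RS libraries. Control libraries had 1.78, 2.71, 3.29, 2.57 and 2.69 CPM, of which replicate 1 was the lowest. The duplexes overlapped over much of their range, well above control. LRRC46 was 3.50-fold above control with miR-34a-WT (log2 1.81, SE 0.11) and 3.20-fold above it with miR-34a-RS (log2 1.68, SE 0.11).

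PIH1D2 carries a PIH domain, and other proteins with that domain help to assemble axonemal dyneins (ENSG00000150773, GRCh38 chr11:112064010-112074274, minus strand). It had 12.3, 12, 9.87, 10.9 and 10.5 CPM in miR-34a-WT libraries, and 11.3, 10.5, 10.4 and 10.03 CPM in miR-34a-RS libraries. Control libraries had 4.19, 4.55, 3.61, 3.23 and 3.32 CPM. All miR-34a-RS values fell inside the miR-34a-WT range. The folds over control were 2.92 (log2 1.54, SE 0.09) with miR-34a-WT and 2.78 (log2 1.47, SE 0.10) with miR-34a-RS.

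The last 2 genes have less settled roles. OSCP1 was named for organic solute transport (ENSG00000116885, GRCh38 chr1:36415827-36450451, minus strand). It had 30.4, 33.1, 34, 31.7 and 33.2 CPM in miR-34a-WT libraries, 25.1, 29.9, 27.9 and 29.2 CPM in miR-34a-RS libraries, and 8.03, 8.41, 8.11, 7.79 and 7.55 CPM in control libraries. The 3 groups did not overlap, although miR-34a-RS replicate 2 came close to miR-34a-WT replicate 1. OSCP1 was 4.06-fold above control with miR-34a-WT (log2 2.02, SE 0.06) and 3.50-fold above it with miR-34a-RS (log2 1.81, SE 0.06).

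CLBA1 contains a clathrin-binding box (ENSG00000140104, GRCh38 chr14:104985775-105010482, plus strand). Its levels were 34.5, 37.9, 35.3, 37.9 and 37.6 CPM in miR-34a-WT libraries and 31.2, 36.2, 37.6 and 36.6 CPM in miR-34a-RS libraries. Control libraries had 13.8, 14.6, 12.6, 14.9 and 15.5 CPM. Apart from miR-34a-RS replicate 1, the lowest of the treated libraries, the duplexes shared one range. The folds over control were 2.57 (log2 1.36, SE 0.06) with miR-34a-WT and 2.49 (log2 1.31, SE 0.06) with miR-34a-RS, the lowest miR-34a-WT fold of the 10.

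**Figure D3:**
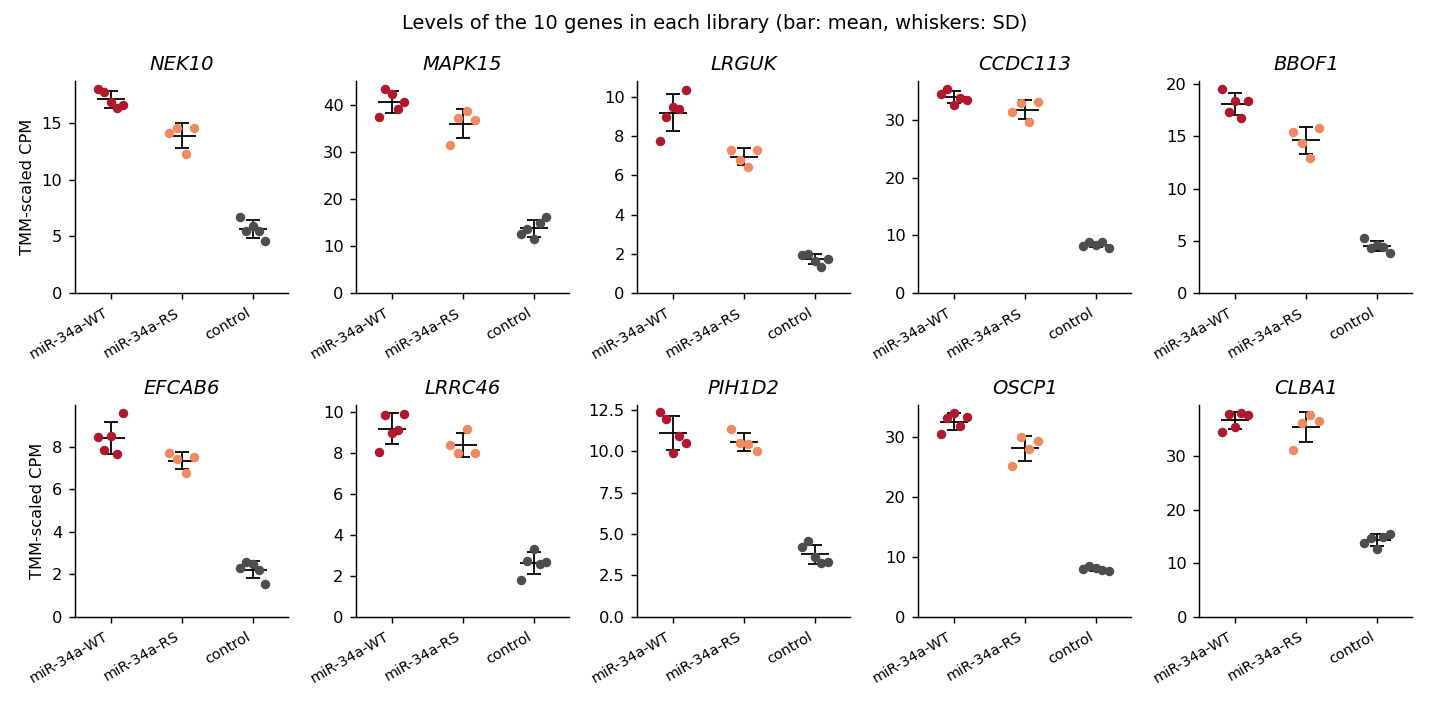
TMM-scaled CPM (vertical axes, each starting at 0) of each gene in every library of miR-34a-WT (n = 5), miR-34a-RS (n = 4) and control (n = 5), with the mean as a bar and the SD as whiskers. Control libraries lie below all treated libraries in every panel, and miR-34a-RS lies wholly below miR-34a-WT for NEK10, LRGUK, BBOF1 and OSCP1.

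Per kilobase of merged exon, the genes started from unequal levels. In miR-34a-WT libraries MAPK15 had the highest level, 13.3 CPM per kb, followed by OSCP1 with 11.7, CLBA1 with 7.02, CCDC113 with 5.73, PIH1D2 with 4.49, BBOF1 with 3.91, LRRC46 with 3.26, LRGUK with 1.91, NEK10 with 1.78 and EFCAB6 with 0.985. LRGUK and NEK10 differed by less than their spread, with SDs of 0.198 and 0.078. In control libraries the level was 4.49 CPM per kb for MAPK15 and 0.260 for EFCAB6. They were the ends of the order there too. Among 17538 tested genes with a length, MAPK15 stood above 78.0% with miR-34a-WT, 75.4% with miR-34a-RS and 54.4% in control by this level, and EFCAB6 above 29.8%, 27.2% and 10.6%. LRGUK stood above 40.0%, 35.4% and 14.2% of them. In control libraries the other 8 genes lay between those of EFCAB6 and MAPK15, and EFCAB6 stayed in the lower part of the range in all 3 groups.

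All 10 genes had a point estimate lower for miR-34a-RS than for miR-34a-WT, and LRGUK, BBOF1, NEK10 and OSCP1 were called lower. Across all tested genes 0.535% were called lower and 1.03% higher with miR-34a-RS, 51.2% had a point estimate below 0, and 2.16% had every miR-34a-RS library below every miR-34a-WT library, as those 4 genes did. The same libraries entered the choice of the genes, and this difference is the difference of the 2 contrasts they were chosen on. Its p-values are therefore not independent of the choice. LRGUK, EFCAB6 and NEK10 were within the first 8 ranks by fold only with miR-34a-WT, a choice that can favour a lower miR-34a-RS estimate. For LRGUK and EFCAB6 this came from the 5 CPM limit, which also depends on the miR-34a-RS level. Their miR-34a-RS folds (log2 2.0 and 1.70) were above that of rank 8 (1.31). PIH1D2, MAPK15 and CLBA1 were within the first 8 ranks only with miR-34a-RS, which can favour the reverse. They were not called, and neither was EFCAB6. Replicate numbers paired the libraries of these groups, and with the number as a block the counts over all genes were 629 lower and 625 higher (3.43% and 3.41% of tested genes), against 98 lower and 188 higher without it. The same 4 of the 10 were called lower with the block.

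LRGUK differed most, at -0.41 on the log2 scale (SE 0.09; Benjamini-Hochberg adjusted p = 0.0177 from the quasi-likelihood test of edgeR), a level 0.754 times that with miR-34a-WT. BBOF1 had -0.31 (SE 0.07, edgeR adjusted p = 0.0272), NEK10 -0.30 (SE 0.08, edgeR adjusted p = 0.0386) and OSCP1 -0.21 (SE 0.06, edgeR adjusted p = 0.0498). With the block their edgeR adjusted p-values were 0.00185, 0.000844, 0.00247 and 0.00275. Leaving out 1 library at a time, the log2 difference stayed below 0 for all 4, between -0.46 and -0.36 for LRGUK, -0.34 and -0.25 for BBOF1, -0.33 and -0.245 for NEK10, and -0.25 and -0.16 for OSCP1. These fits had no replicate block, and their adjusted p-values did not stay under the threshold. The calls with the block were not tested in this way. All 4 calls were lost without miR-34a-RS replicate 2 (edgeR adjusted p between 0.0571 and 0.0973), without miR-34a-RS replicate 3 (0.0943 to 0.201), without miR-34a-WT replicate 3 (0.0569 to 0.158) and without miR-34a-WT replicate 5 (0.0637 to 0.109). Over all 20 alternative settings the adjusted p ranged between 0.00185 and 0.0943 for LRGUK, 0.000844 and 0.153 for BBOF1, 0.00247 and 0.201 for NEK10, and 0.00275 and 0.158 for OSCP1.

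The other 6 genes did not pass the test, and their intervals bound the difference. The unadjusted 95% interval of the log2 fold change of miR-34a-RS over miR-34a-WT was -0.39 to -0.0044 for EFCAB6 (edgeR adjusted p = 0.398) and -0.32 to -0.02 for MAPK15 (edgeR adjusted p = 0.310). It was -0.33 to 0.07 for LRRC46, -0.20 to 0.0096 for CCDC113, -0.24 to 0.11 for PIH1D2 and -0.18 to 0.07 for CLBA1. A fall in level by 0.39 on the log2 scale is thus the most that any of these 6 intervals allows. The median difference of the 10 was -0.18, beside -0.003 over all tested genes. Some genes outside the 10 differed by as much, among them DNAI3 and TCTN2 (log2 -0.18 each). Among the 2514 genes called higher than the shared control with both duplexes, the median was -0.03, 67.5% had a point estimate below 0 and 1.07% were called lower.

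**Figure D4:**
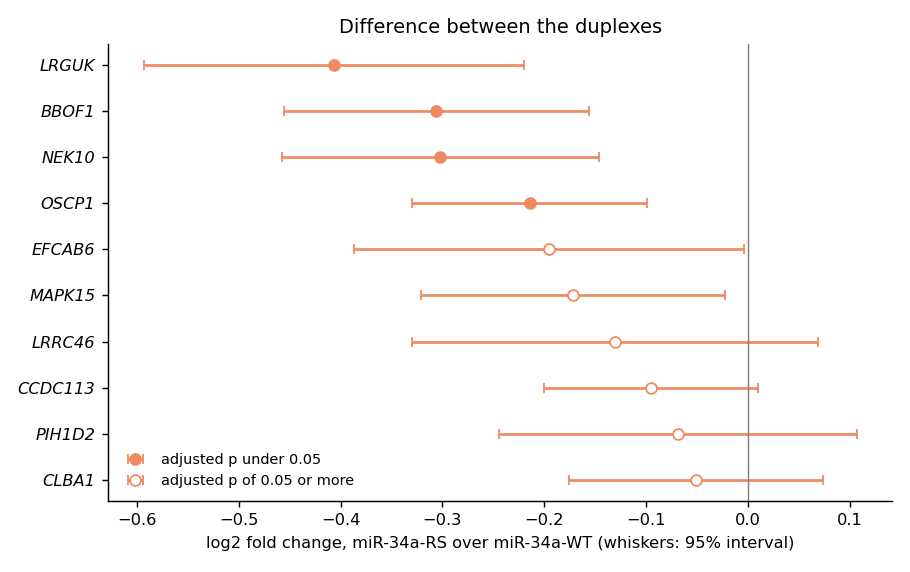
Log2 fold change of miR-34a-RS over miR-34a-WT (horizontal axis) with unadjusted 95% intervals, filled where the edgeR adjusted p was under 0.05. LRGUK, BBOF1, NEK10 and OSCP1 are filled, and all 10 points lie left of 0.

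Within groups the 10 genes did not vary as one. Over the 14 libraries, log2 deviations from the group mean gave a correlation above 0 in 26 of 45 pairs of genes, with a median of 0.077. BBOF1 and NEK10 deviated together (r = 0.893), as did MAPK15 and CLBA1 (r = 0.876). These 2 pairs went opposite ways, with r = -0.654 between BBOF1 and MAPK15 and r = -0.542 between NEK10 and CLBA1. In replicate 1 of all 3 groups, BBOF1 and NEK10 lay above their group mean, and MAPK15 and CLBA1 below it. No other replicate number held each of these genes to one side across its groups. The points share libraries, their depth and replicate numbers, so the correlations are descriptions. The part of the replicate number in them was not tested. The SD of log2 CPM within a group was between 0.045 and 0.153 in miR-34a-WT libraries, 0.073 and 0.129 in miR-34a-RS libraries, and 0.059 and 0.314 in control libraries.

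Between groups the profiles were alike, since all 10 were selected for the same direction, and each correlated with their mean standardised profile at 0.975 or above. Among 11249 genes compared, the non-members closest to that profile over the 14 libraries were DNAI3 (r = 0.998), WDR19 (0.997), KIF3B (0.995), TCTN2 (0.995), IFT88 (0.994), NEK2 (0.994), TCTN1 (0.994) and RPL7L1 (0.993), and 340 genes had r above 0.95. WDR19 and IFT88 are subunits of intraflagellar transport particles, and KIF3B is a subunit of their motor. TCTN1 and TCTN2 belong to the transition zone at the base of the cilium. RPL7L1 is related to a ribosomal protein. The log2 difference of miR-34a-RS minus miR-34a-WT was -0.18 for DNAI3 and TCTN2, -0.17 for IFT88, -0.15 for TCTN1 and -0.12 for WDR19. It was -0.098 for KIF3B and -0.04 for NEK2 and RPL7L1. Without the block only TCTN2 of these was called lower (edgeR adjusted p = 0.0362). With it DNAI3, TCTN2, IFT88, TCTN1 and WDR19 were (edgeR adjusted p between 0.00345 and 0.0361). The profile holds this difference, so choosing genes by it can favour such values. DNAI3 had 15.2 ± 0.8, 13.4 ± 0.3 and 4.49 ± 0.22 CPM in miR-34a-WT, miR-34a-RS and control libraries (mean ± SD, n = 5, 4 and 5), and WDR19 had 79.5 ± 2.4, 73.2 ± 1.8 and 44.6 ± 1.3 CPM.

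Other genes of cilia were counted over lists, with edgeR's quasi-likelihood test and Benjamini-Hochberg adjustment over all tested genes. Over all tested genes, 18.9% rose and 21.3% fell with miR-34a-WT, with a median log2 fold change of -0.02. With miR-34a-RS, 16.2% rose and 18.4% fell, with a median of -0.01. These values stand beside every list that follows. Of 32 tested axonemal dyneins and assembly factors, 24 rose after miR-34a-WT and 23 after miR-34a-RS, and the rest did not pass the test. Their median log2 fold change was 0.58 after miR-34a-WT and 0.55 after miR-34a-RS. DNAAF1, a cytoplasmic assembly factor of dynein arms, had 8.10 ± 0.89, 7.46 ± 0.47 and 1.68 ± 0.29 CPM in miR-34a-WT, miR-34a-RS and control libraries (mean ± SD, n = 5, 4 and 5), with log2 fold changes of 2.28 and 2.16. DNAL1, a light chain of the outer arm, had 57.7 ± 2.8, 53.6 ± 3.5 and 26.2 ± 1.2 CPM. Most of these genes thus rose. Their medians lay below the rise of any of the 10, which were chosen as the largest rises, so nothing is read from that gap.

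Of 64 tested genes of axoneme structure, 49 rose and 3 fell with miR-34a-WT, and 46 rose and 1 fell with miR-34a-RS, with medians of 0.63 and 0.60. AK8, an adenylate kinase of motile cilia, had log2 fold changes of 1.90 (SE 0.11) and 1.72 (SE 0.12). PIERCE1, a protein inside the axonemal microtubules, had 1.13 (SE 0.07) and 0.96 (SE 0.07). Of 34 genes of intraflagellar transport and the BBSome, which serve cilia that beat and those that do not, 30 rose after miR-34a-WT and 28 after miR-34a-RS, with medians of 0.47 and 0.41. IFT88 had 30.9 ± 1.2, 27.4 ± 1.1 and 13.5 ± 0.7 CPM, and IFT22 had 47.7 ± 2.1, 43.1 ± 1.7 and 21.6 ± 1.0 CPM in miR-34a-WT, miR-34a-RS and control libraries (mean ± SD, n = 5, 4 and 5). These lists were drawn up with earlier results of the same data known, so their counts are no independent support.

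The regulators of cilium formation moved both ways. Of 16 tested, 7 rose and 6 fell with miR-34a-WT, and 4 rose and 6 fell with miR-34a-RS. The shares over all tested genes were 18.9% higher and 21.3% lower with miR-34a-WT, and 16.2% and 18.4% with miR-34a-RS. E2F5, which with its cofactor multicilin drives centriole amplification, had 13.3 ± 0.8, 13.1 ± 0.7 and 42.0 ± 1.5 CPM in miR-34a-WT, miR-34a-RS and control libraries (mean ± SD, n = 5, 4 and 5). MYB and FOXN4, transcription factors of multiciliated cell differentiation, also fell, by 1.63 and 1.09 on the log2 scale with miR-34a-WT and by 1.76 and 0.97 with miR-34a-RS. CEP97, which caps centrioles with CP110, was the 1 regulator called lower under miR-34a-RS when set against miR-34a-WT without the block, at 74.2 ± 6.4 and 88.3 ± 4.5 CPM (log2 -0.25, SE 0.06, edgeR adjusted p = 0.0163). That call was lost without miR-34a-RS replicates 2, 3 or 5 (edgeR adjusted p = 0.0814, 0.0936 and 0.0634) and without miR-34a-WT replicates 1 or 3 (0.0524 and 0.0561), while its log2 difference over the single-library omissions lay between -0.30 and -0.22. CCP110, the gene of CP110, had 147 ± 7, 131 ± 9 and 110 ± 3 CPM in miR-34a-WT, miR-34a-RS and control libraries, and rose by 0.42 (edgeR adjusted p = 5.43e-08) and 0.25 (edgeR adjusted p = 0.00019) on the log2 scale. With the replicate number as a block, 3 regulators were called lower under miR-34a-RS than under miR-34a-WT: CEP97 (log2 -0.26, edgeR adjusted p = 0.00119), CCP110 (log2 -0.18, edgeR adjusted p = 0.00145, against 0.095 without the block) and RFX3, a transcription factor of ciliary genes (log2 -0.27, edgeR adjusted p = 0.0168, against 0.181). In the same blocked comparison, genes called lower were 2 of 32 tested dyneins and assembly factors and 5 of 64 tested axoneme genes. So were 4 of 34 genes of intraflagellar transport and the BBSome, and 1 axoneme gene was called higher. None of these calls was made without the block. With the block, 3.43% of all tested genes were called lower and 3.41% higher, beside 3 of the 16 tested regulators called lower. CCP110 and RFX3 are named after their values were seen.

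Of 8 markers of multiciliated cells 6 were tested, of which 4 rose after miR-34a-WT and 5 after miR-34a-RS. The median log2 fold change of these 6 was 1.97 after miR-34a-WT and 1.98 after miR-34a-RS. The summed level of all 8 stayed low, at 12.4 to 14.2, 11.5 to 13.4 and 5.56 to 7.64 CPM in miR-34a-WT, miR-34a-RS and control libraries. CIMIP1 was at 0 in every library. RSPH1, a radial spoke protein, had 1.91 ± 0.26, 1.88 ± 0.09 and 0.423 ± 0.081 CPM in those groups (mean ± SD, n = 5, 4 and 5). RSPH1 and ROPN1L are also in the axoneme list, and FOXJ1 is among the regulators.

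Relatives and partners of the 10 genes moved less evenly. Of 24 tested, 13 rose with each duplex, while 3 fell after miR-34a-WT, 2 fell after miR-34a-RS, and the median log2 fold changes were 0.14 and 0.15. Among the NIMA-related kinases, NEK2, a kinase of centrosome separation, had 120 ± 4, 116 ± 4 and 67.7 ± 1.3 CPM in miR-34a-WT, miR-34a-RS and control libraries (mean ± SD, n = 5, 4 and 5). NEK11 had log2 fold changes of 1.30 (SE 0.10) and 1.16 (SE 0.10), and NEK7 had 0.99 (SE 0.07) and 0.88 (SE 0.07). NEK3 instead fell by 0.38 and 0.31 on the log2 scale, and MAPK4, an atypical MAP kinase like MAPK15, fell by 0.85 and 0.77. NEK3 and MAPK4 are named after their values were seen.

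The 3′ UTRs of the 10 genes, 1 per gene from GENCODE 29, were searched for matches to the miR-34a seed. LRRC46 held an 8mer (CACTGCCA), CLBA1 a 6mer (ACTGCC), and the other 8 genes held no match. Both sites are shown, since they are the seed matches among the 10, as sense DNA on GRCh38 with the match in capitals. They lie at chr17:47837435-47837461 and chr14:104995289-104995315, both on the plus strand.
LRRC46 8mer site: agaggcatgccatctCACTGCCAcccc
CLBA1 6mer site: gcaggtgccctcacttACTGCCtgggc
Neither had the word AGCT, which would pair with guide positions 13 to 16, in the 25 bases upstream. Among 13611 tested genes with a 3′ UTR, 6.0% held an 8mer and 64.9% no match. Genes with an 8mer had a median log2 fold change of -0.22 after miR-34a-WT and -0.20 after miR-34a-RS, and 11.6% and 9.8% were called higher. LRRC46, at 1.81 and 1.68, stood well above that median, as its choice among the largest rises makes likely. Genes without a match had medians of 0.03 and 0.03, and 27.1% and 23.1% of them were called higher.

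Promoter windows of 300 bases, 250 before and 50 after the start, were in the RefSeq table for LRGUK, BBOF1, PIH1D2, NEK10 and CLBA1, the last 2 with a pair of windows each. They were searched on both strands for the X-box, the site of RFX factors that switch on ciliary genes, as GTNNCC, then 0 to 3 bases, then GGNNAC. This word was found in 3.87% of 35116 windows and in 3 of the 7 windows of these genes. They were those of LRGUK and PIH1D2 and a window of CLBA1, whose other window lacked the word. A stricter form, GTTNCC then GGNAAC, lies within this word by construction and was found in 0.74% of windows. It was in that of PIH1D2 and in the same window of CLBA1. The 3 windows are shown for this word, in capitals, from RefSeq on GRCh38.p14 at chr7:134127090-134127389 on the plus strand, chr11:112073968-112074267 on the minus strand and chr14:104985538-104985837 on the plus strand.
LRGUK promoter: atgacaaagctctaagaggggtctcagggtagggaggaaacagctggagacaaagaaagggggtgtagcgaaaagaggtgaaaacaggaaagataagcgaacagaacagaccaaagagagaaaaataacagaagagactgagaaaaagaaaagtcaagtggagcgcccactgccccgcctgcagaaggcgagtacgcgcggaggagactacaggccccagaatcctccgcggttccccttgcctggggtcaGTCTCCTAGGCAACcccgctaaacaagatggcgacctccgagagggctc
PIH1D2 promoter: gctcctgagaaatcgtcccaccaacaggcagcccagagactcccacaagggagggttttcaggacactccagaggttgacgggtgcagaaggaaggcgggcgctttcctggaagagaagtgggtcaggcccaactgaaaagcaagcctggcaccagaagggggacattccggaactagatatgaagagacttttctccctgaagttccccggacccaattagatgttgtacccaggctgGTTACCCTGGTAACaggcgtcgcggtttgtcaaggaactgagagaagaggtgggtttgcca
CLBA1 promoter: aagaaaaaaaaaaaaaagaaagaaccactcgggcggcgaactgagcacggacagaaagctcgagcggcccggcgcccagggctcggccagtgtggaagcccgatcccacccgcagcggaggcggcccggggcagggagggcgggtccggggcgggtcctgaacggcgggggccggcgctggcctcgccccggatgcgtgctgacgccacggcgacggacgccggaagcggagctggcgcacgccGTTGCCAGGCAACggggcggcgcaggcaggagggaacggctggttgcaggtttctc
Counting the first base after the 250 as position 0, the word ran over positions 1 to 14 in LRGUK, -11 to 2 in PIH1D2 and -6 to 6 in CLBA1. The forkhead word TGTTTAC (3.4% of windows) and the E2F word TTTCCCGC (1.63%) were in no window of these 5 genes, and the MYB word CAGTTG (11.4%) was in that of PIH1D2. The words were chosen after the windows were seen, and a match is a description of letters, not of binding.

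RFX3 itself, whose family binds the X-box, had 10.5 ± 0.8, 8.82 ± 0.95 and 8.07 ± 0.89 CPM in miR-34a-WT, miR-34a-RS and control libraries (mean ± SD, n = 5, 4 and 5). Its log2 fold change was 0.38 after miR-34a-WT (edgeR adjusted p = 0.000739) and 0.13 after miR-34a-RS (edgeR adjusted p = 0.299), and the difference of miR-34a-RS minus miR-34a-WT was -0.25 (edgeR adjusted p = 0.181, and 0.0168 with the replicate block). RFX2 had log2 fold changes of 0.10 and -0.01, neither past the threshold. Both are named after their values were seen.

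No tested neighbour moved as far as the gene beside it. The genes described here were chosen as the largest rises, so this was largely set by the choice and nothing is read from it. Since the kit used keeps no strand information, reads from exons shared with a gene on the other strand cannot be assigned. MRPL10, a mitochondrial ribosomal protein gene that starts head to head with LRRC46, fell to 58.7 ± 1.8 CPM in miR-34a-WT libraries and 58.0 ± 2.3 in miR-34a-RS libraries, against 87.1 ± 3.7 in control (mean ± SD, n = 5, 4 and 5). Its log2 fold changes were -0.57 (edgeR adjusted p = 9.07e-11) and -0.59 (edgeR adjusted p = 2.41e-10), beside 1.81 and 1.68 for LRRC46. NKAPD1, head to head with PIH1D2 and sharing 7.64% of its exon bases, had 92.9 ± 3.2, 90.6 ± 2.8 and 88.6 ± 5.2 CPM and did not pass the test (log2 0.07 and 0.03).

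BBOF1 overlaps ENTPD5, which starts head to head with it, and ALDH6A1, which shares 14.5% of its exon bases. ENTPD5 had 33.9 ± 2.4, 31.6 ± 1.3 and 30.4 ± 1.6 CPM in miR-34a-WT, miR-34a-RS and control libraries (mean ± SD, n = 5, 4 and 5), with log2 fold changes of 0.15 (SE 0.05) and 0.05 (SE 0.06). ALDH6A1 fell to 33.8 ± 3.1 and 35.6 ± 2.9 CPM, against 44.2 ± 2.1 in control. CDCA4, which shares 4.77% of the exon bases of CLBA1, had log2 fold changes of 0.17 (SE 0.05) and 0.13 (SE 0.05). The values of ENTPD5 and CDCA4 were small beside those of BBOF1 and CLBA1. SCRN2, which overlaps LRRC46, DLAT, which overlaps PIH1D2, and EFCAB6-DT, head to head with EFCAB6, did not pass the test with either duplex, EFCAB6-DT with log2 fold changes of 0.29 (SE 0.19) and 0.49 (SE 0.20) at about 1 CPM. For CCDC113, 12.8% of exon bases are shared with PRSS54, and for MAPK15 5.43% with an antisense gene, neither of which was tested, so the part of those reads was not tested.

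**Figure D5:**
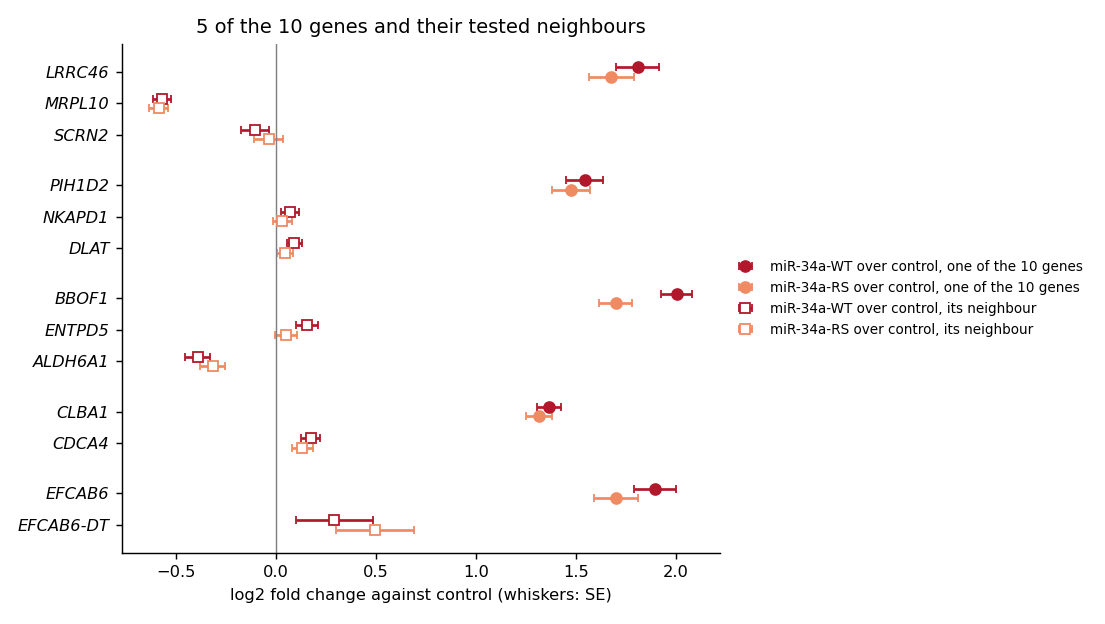
Log2 fold change over control (horizontal axis, whiskers of 1 SE) of LRRC46, PIH1D2, BBOF1, CLBA1 and EFCAB6 (filled circles) and of their tested neighbours (open squares), with miR-34a-WT in dark red above miR-34a-RS in orange. The neighbours lie between -0.59 and 0.49, while these 5 genes lie between 1.31 and 2.0. These 5 genes were chosen among the largest rises, so the gap is largely set by the choice.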

How the data were processed

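RNA from transfected HEK293T cells was made into 14 TruSeq v2 libraries, per the labels' protocols. The authors deposited whole-number counts for 63140 genes. The submitters' processing notes name GRCh38, edgeR 3.42.4, featureCounts, Subread 2.0.3 and STAR 2.7.11a, and the annotation release and strand setting are not given in the sources used here. The values show no normalisation, and 21677 genes have no count. Replicates differed beyond sampling noise (chi-square per degree of freedom 2.73 to 14.24 over 26 pairs), and the common biological coefficient of variation was 0.062.

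The gene test here was that of edgeR 4.0.16 under R 4.3.3 (TMM, filterByExpr, robust glmQLFit and glmQLFTest) in one fit of 3 group means, with Benjamini-Hochberg adjustment over 18321 genes and a threshold of 0.05. DESeq2 1.42.0, RLE and upper-quartile factors, no filter, fits of 2 groups, the replicate number as a block and leaving out each library were the alternatives, 20 settings in all. The test was checked on simulated counts.

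Deviations from the group means over 11259 genes correlated at 0.37 to 0.72 between same-numbered miR-34a-RS and miR-34a-WT libraries (mean 0.56, against -0.13 for other pairs), so the numbers pair those groups. Log2 CPM used a prior count of 2. The 10 genes and all lists were chosen with earlier results of these data known. Besides the 10, the text names by rule the genes around rank 8, up to 3 of each list by smallest adjusted p, the 8 most similar profiles, and genes that overlap or start within 2000 bases head to head. Symbols matched 62541 identifiers, and GENCODE 29 identifiers hold 99.71% of counts. Sequences were read with Python 3.11.15, numpy 2.4.6 and pandas 2.3.3 from GRCh38 and the RefSeq tables, and figures drawn with matplotlib 3.10.9.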

Additional observations from a re-analysis of the deposited data

How the results depend on the processing

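The 10 genes kept their direction and side of the threshold against control in all 400 values under the 20 settings. For miR-34a-RS over miR-34a-WT, 162 of the 200 values kept both, 37 kept the direction but no longer passed the threshold, and CLBA1 ranged between -0.0812 without miR-34a-RS replicate 3 and 0.0136 without miR-34a-RS replicate 1, turning its sign in the last case, and was uncalled throughout. OSCP1 lost its call in 16 settings, NEK10 in 12, BBOF1 in 5 and LRGUK in 4. The count of genes lower with miR-34a-RS when set against miR-34a-WT, 98, was 230 with DESeq2 and 60 with only the 2 groups fitted. With the replicate block, the counts were 625 higher and 629 lower. Leaving out single libraries gave 111 to 391 genes higher and 31 to 339 lower. The highest of each came without miR-34a-RS replicate 1, and the cause was not tested. Counts against control stayed within 1.5 times under every setting. Against control, numbers paired less well. Same-numbered r was -0.16 to 0.56 for miR-34a-WT (mean 0.29, against -0.07 for other pairs), best with its own number in 3 of 5 libraries. For miR-34a-RS it was -0.00 to 0.48 (mean 0.27, against -0.07), best in 2 of 4. Pairing with control was thus weaker on average and did not hold for every number. Blocked counts were 4169 higher and 4648 lower for miR-34a-WT, and 3678 and 4037 for miR-34a-RS. With the block, 7 cilia regulators in place of 4 rose with miR-34a-RS. Among the 10 genes, the lowest count was 34 (EFCAB6, a control library), and the largest SE of a log2 fold change in each comparison was that of LRRC46, 0.107 for miR-34a-WT and 0.112 for miR-34a-RS over control and 0.0966 for miR-34a-RS over miR-34a-WT.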
